A study of Arabidopsis thaliana with 36 samples.

Results

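Galactinol and raffinose metabolism was examined through 8 Arabidopsis thaliana genes chosen by locus, of which 7 were among the 16283 genes analysed. They comprised the galactinol synthase genes GolS1 (AT2G47180), GolS2 (AT1G56600), GolS3 (AT1G09350) and GolS4 (AT1G60470), the raffinose synthase gene RS5 (AT5G40390), the stachyose synthase gene RS4 (AT4G01970), and DIN10 (AT5G20250) and SIP2 (AT3G57520) of the raffinose synthase and seed imbibition family. RS4 was not analysed here. The RefSeq gene table lists RS5 under the symbol SIP1 and RS4 under STS.

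Galactinol synthase joins galactose from UDP-galactose to myo-inositol, and the product, galactinol, is the galactose donor for the raffinose family of sugars. Raffinose synthase moves that galactose onto sucrose to make raffinose, and alkaline alpha-galactosidases take it off again. Raffinose and galactinol accumulate in seeds and in leaves under drought, salt, heat and cold, where they are known as compatible solutes and as scavengers of hydroxyl radicals.

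The seedlings were wild type Columbia-0, 7 d old, grown on Murashige and Skoog medium with 1% sucrose at 21 °C in 16 h of light and 8 h of dark. Treated groups were placed for 1, 2 or 3 h in a solution of 30% polyethylene glycol (PEG), a polymer that draws water out of tissue, with salicylhydroxamic acid (SHAM), an inhibitor of the alternative oxidase and of lipoxygenases. The labels give SHAM at 1 mM, while the treatment protocol also names 0.1 mM, and the osmotic pressure of the PEG solution is given as -2 MPa. Control seedlings stood in water, for 1 h by the labels, in 3 sets that the sample titles name S0, PS0 and PH0. The design text gives a different time for the controls, so a time-matched control for the 1 h groups is not assured. PS0 shares its title prefix with the treated groups and served as the control, and the other sets were used to see how far a value rests on that choice. Roots and shoots were separated before RNA extraction, each biological replicate pooled 30 to 50 seedlings, and each of the 12 groups held 3 libraries, 36 in all. PEG without SHAM, SHAM without PEG, and water at 2 or 3 h were not analysed here, so the contributions of PEG, SHAM and time in liquid cannot be told apart.

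Expression was measured by MARS-seq, which counts the 3′ ends of transcripts, and values are the authors' normalized counts. The libraries held 161684 to 7181461 reads. In the shallowest of them, shoot PH0 water replicate 1, 3 reads equalled 33.3 normalized counts, so low values in single libraries have wide counting error. The summed level of 8 photosynthesis genes was 235.9 to 776.2 normalized counts in 17 root libraries and 2132.5 in the root 1 h replicate 2 library, which held 429814 reads, against 73532.7 to 165807 in shoot libraries. The summed level of 8 root genes was 793.6 to 2174.5 in root libraries and 14.2 to 61.0 in shoot libraries, where 1 of the 8, the peroxidase gene AT3G49960, was at 0 throughout. A change between bulk tissue samples cannot be told apart from a change in the share of cells that express the gene. Nothing in the labels says what a replicate number shares across groups, so p-values measure the spread between these pooled samples. Root and shoot libraries may come from the same pooled seedlings, but comparisons between organs treated them as independent.

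GolS2, a galactinol synthase known for its induction by drought and salt, rose in both organs by 2 h and stood highest at 3 h. In shoots it stood at 0, 1.5 and 1.7 normalized counts in PS0 water, at 7.1, 4.5 and 14.8 after 1 h, at 74.9, 71.8 and 60.5 after 2 h, and at 202, 107.9 and 169.1 after 3 h. No 2 neighbouring groups of that series overlapped. The change against PS0 water on the log2(normalized count + 1) scale was 2.23 ± 0.56 (SE) at 1 h (limma, Benjamini-Hochberg adjusted p = 0.0739), 5.21 ± 0.56 at 2 h (limma adjusted p = 2.89e-06) and 6.36 ± 0.56 at 3 h (limma adjusted p = 1.05e-07). The difference at 1 h did not pass the threshold of 0.05 against PS0 water, but passed it against all 3 water sets together, at 2.64 (limma adjusted p = 7.25e-04). Against PS0 water edgeR (adjusted p = 0.0518) and DESeq2 (adjusted p = 0.0579) on the recovered reads did not call it either. The share of all genes called in shoots at 1 h was also larger against S0 and PH0 water than against PS0, as given below.

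In roots GolS2 stood at 0, 0 and 12.4 normalized counts in PS0 water, at 4.7, 12.8 and 4.1 after 1 h, at 17.1, 83.8 and 40.5 after 2 h, and at 97.5, 162.7 and 94.9 after 3 h. The 2 h and 3 h libraries lay above every water library, whereas the 1 h libraries overlapped the third PS0 library. That library held 521030 reads, and its 12.4 came from 4 reads. GolS2 was higher by 1.63 ± 0.80 at 1 h (limma adjusted p = 0.302), by 4.07 ± 0.80 at 2 h (limma adjusted p = 0.00709) and by 5.61 ± 0.80 at 3 h (limma adjusted p = 2.02e-04). Without PS0 replicate 3 the change at 1 h was 2.88 and passed (limma adjusted p = 0.0365). Leaving out 1 PS0 library kept both calls and gave 3.45 to 5.32 at 2 h and 4.98 to 6.85 at 3 h, the highest without replicate 3 and the lowest without replicate 1 or 2. The call at 2 h was lost when the fit held only the 2 compared groups (limma adjusted p = 0.124). At 3 h GolS2 averaged 118.4 ± 38.4 normalized counts in treated roots and 4.13 ± 7.16 in PS0 water roots, and 159.7 ± 47.8 in treated shoots and 1.07 ± 0.929 in PS0 water shoots (SD, n = 3 each).

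GolS2 also differed between treated times. The difference in means there uses no water library, but the water libraries were in the fit and so entered its SE and p. It was higher at 3 h than at 1 h by 4.13 ± 0.56 in shoots (limma adjusted p = 5.80e-05) and by 3.97 ± 0.80 in roots (limma adjusted p = 0.0133). The call in roots was lost when root 3 h replicate 1, root 3 h replicate 2 or root 1 h replicate 1 was left out. The root change minus the shoot change at 3 h was -0.76, with a 95% interval of -2.75 to 1.23, so a difference between the organs was not detectable at this precision.

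**Figure D1:**
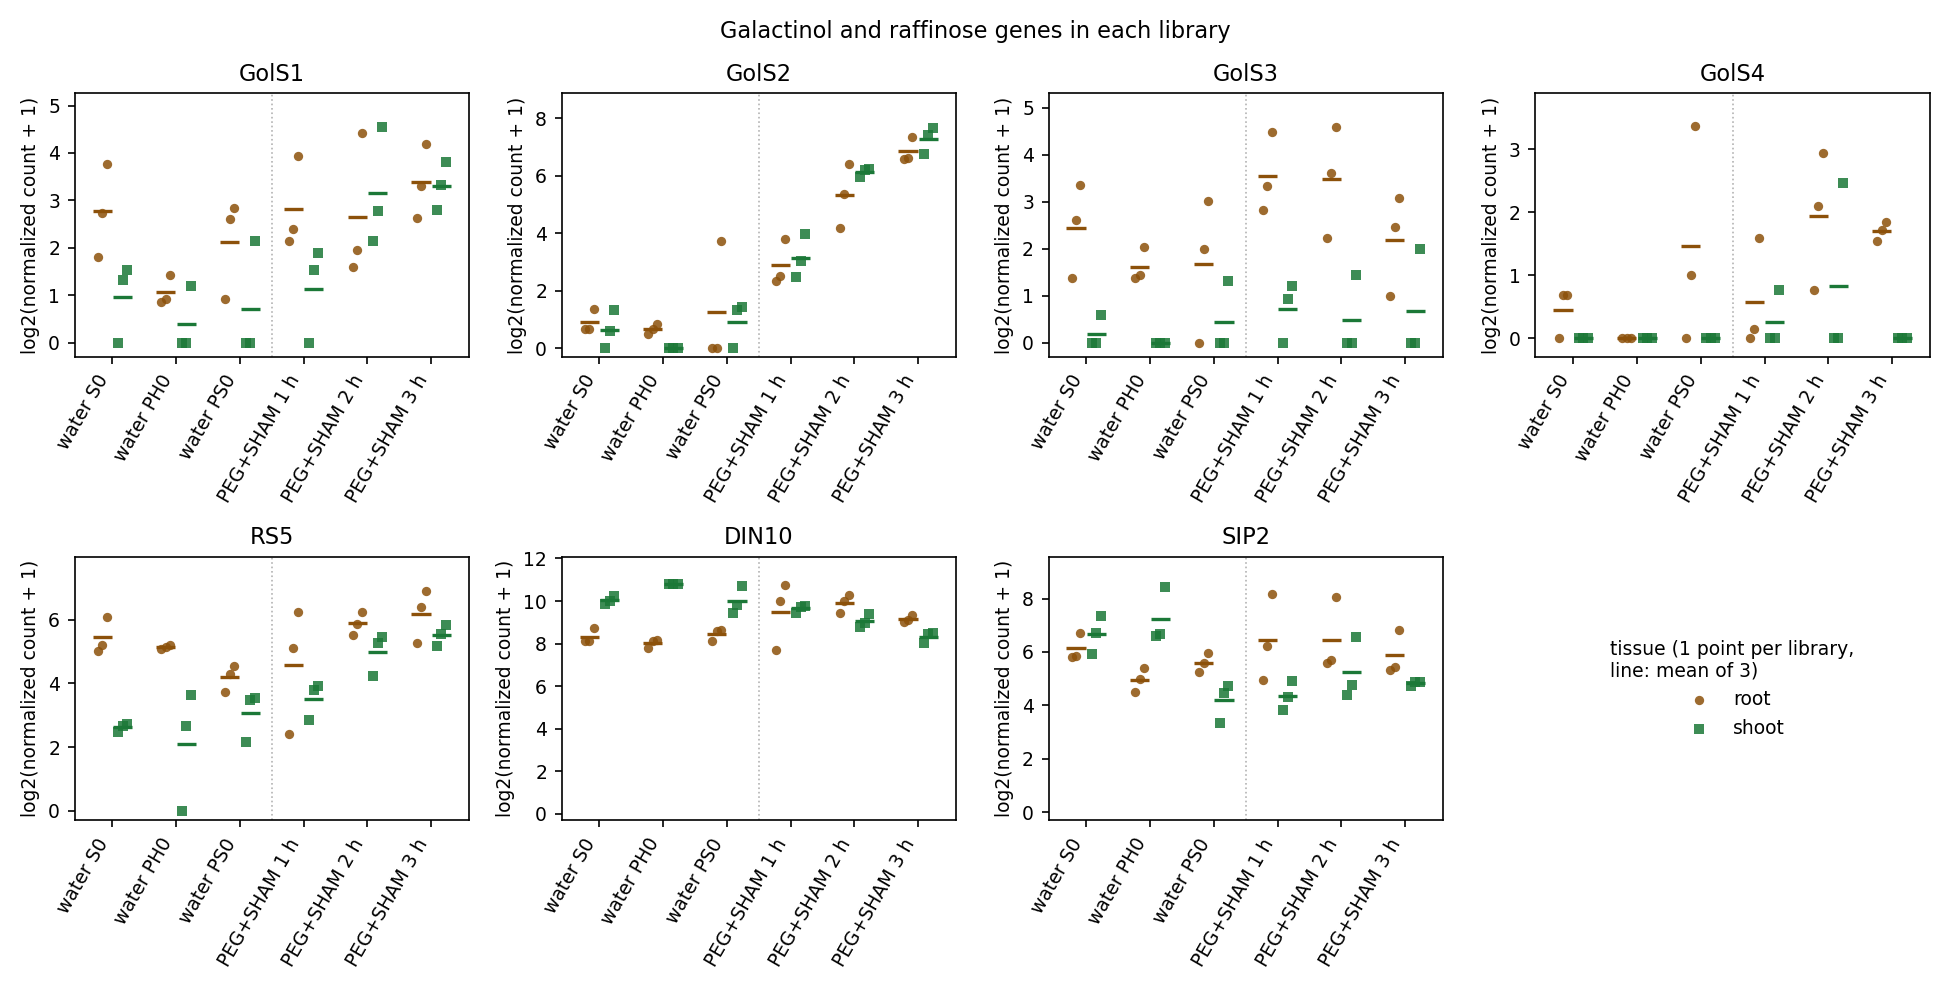
Normalized counts of the 7 measured genes on a log2(value + 1) axis, one point per library, for the 3 water sets and for 1, 2 and 3 h of PEG with SHAM, in roots (circles) and shoots (squares), with lines at the means of 3 libraries. GolS2 climbs with time in both organs, RS5 and GolS1 are higher in treated shoots at 3 h than in PS0 water shoots, and DIN10 declines with time in treated shoots.

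GolS1, a galactinol synthase known from heat and drought responses, was measured by few reads and, of the comparisons with PS0 water, was called in shoots at 3 h. Its shoot libraries held 0, 0 and 3.4 normalized counts in PS0 water, 2.7, 1.9 and 0 after 1 h, 5.8, 22.4 and 3.4 after 2 h, and 5.9, 9 and 13.1 after 3 h. At 3 h all treated libraries lay above all water libraries, although the 3 treated libraries together held 30 reads of the gene. The shoot change was 2.44 ± 0.78 at 2 h (limma adjusted p = 0.0559) and 2.60 ± 0.78 at 3 h (limma adjusted p = 0.0317). The call at 3 h was lost in 5 of 6 fits that each left out a library (limma adjusted p of 0.0503 to 0.129), and was not made on the recovered reads by edgeR (adjusted p = 0.0757) or DESeq2 (adjusted p = 0.136). Without shoot PS0 replicate 3 the change at 3 h was 3.31 (limma adjusted p = 0.00802). Against all 3 water sets GolS1 in shoots passed at both times, at 2.46 at 2 h (limma adjusted p = 0.00850) and 2.62 at 3 h (limma adjusted p = 0.00472).

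In roots GolS1 ranged over 3.4, 4.3 and 14.3 normalized counts after 1 h, 2, 2.9 and 20.3 after 2 h, and 8.9, 5.2 and 17.3 after 3 h, against 5.1, 0.9 and 6.2 in PS0 water. The groups overlapped at every time, and replicate 3 was the highest treated library each time. The change at 3 h was 1.25 ± 0.76 (limma adjusted p = 0.381).

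GolS3, the galactinol synthase best known for its induction by cold, was detected mainly in roots. Root values were 6.1, 21.3 and 9.1 normalized counts after 1 h, 11.2, 23.1 and 3.7 after 2 h, and 7.5, 4.5 and 1 after 3 h, against 3, 7.1 and 0 in PS0 water. The groups overlapped at each time, with the highest treated values at 1 and 2 h. The change was 1.88 ± 0.80 at 1 h (limma adjusted p = 0.229), 1.80 ± 0.80 at 2 h (limma adjusted p = 0.289) and 0.51 ± 0.80 at 3 h (limma adjusted p = 0.776). In shoots no library held more than 3 reads of GolS3 or more than 3 normalized counts, and it was not tested there.

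GolS4, the fourth galactinol synthase in the set, fell below the filter in both organs and was not tested. Its root values were 2, 0 and 0.1 normalized counts after 1 h, 0.7, 6.7 and 3.3 after 2 h and 2.3, 2.6 and 1.9 after 3 h, against 1, 0 and 9.3 in PS0 water, where 9.3 came from 3 reads. In shoots it was at 0 in all 9 water libraries, and 1 read was found in each of 2 treated libraries.

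RS5, the raffinose synthase of vegetative tissue, rose in shoots by 3 h. Shoot libraries held 3.5, 10.7 and 10.1 normalized counts in PS0 water, 6.2, 14.2 and 12.8 after 1 h, 42.6, 18 and 37.7 after 2 h, and 46, 55.6 and 34.9 after 3 h. The 2 h and 3 h libraries overlapped each other and lay above every water and 1 h library. The change was 0.46 ± 0.70 at 1 h (limma adjusted p = 0.965), 1.93 ± 0.70 at 2 h (limma adjusted p = 0.0909) and 2.45 ± 0.70 at 3 h (limma adjusted p = 0.0228). The call at 3 h was lost without shoot 3 h replicate 1 (limma adjusted p = 0.0684), shoot 3 h replicate 2 (limma adjusted p = 0.0880) or shoot PS0 replicate 1 (limma adjusted p = 0.118). At 2 h RS5 passed on the recovered reads with edgeR, at 2.03 (adjusted p = 0.00218).

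In roots RS5 varied more between libraries and between the water sets. Treated roots held 33.6, 4.3 and 75.5 normalized counts after 1 h, 75.5, 45.3 and 57.9 after 2 h, and 118.5, 83.6 and 37.4 after 3 h, against 22.3, 18.6 and 12.4 in PS0 water. All libraries at 2 and 3 h lay above PS0 water, but both groups overlapped S0 water, which held 66.9, 31.7 and 36.3. The 4.3 at 1 h came from 1 read in replicate 2, the library with the high photosynthesis gene sum. Without that library the RS5 change at 1 h was 1.49 (limma adjusted p = 0.0959), and with it 0.40 ± 0.66 (limma adjusted p = 0.823). The change at 3 h was 2.00 ± 0.66 against PS0 water (limma adjusted p = 0.0831). It was 0.89 against the S0 and PH0 sets (limma adjusted p = 0.265), while edgeR and DESeq2 on the recovered reads called the change against PS0 water at 2.27 (adjusted p = 0.0259) and 2.21 (adjusted p = 0.00449).

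DIN10, first known as a gene induced in darkness and assigned to the raffinose synthase family, fell in shoots with time. Shoot libraries held 892.1, 698.1 and 1686.1 normalized counts in PS0 water, 856.7, 884.4 and 685.9 after 1 h, 681.2, 498.4 and 445.5 after 2 h, and 258.4, 365.1 and 349.2 after 3 h. The 3 treated times did not overlap one another, and the 2 h and 3 h libraries lay below every water library. The change was -0.34 ± 0.25 at 1 h (limma adjusted p = 0.858), -0.93 ± 0.25 at 2 h (limma adjusted p = 0.0225) and -1.66 ± 0.25 at 3 h (limma adjusted p = 1.08e-04). Between treated times, the DIN10 change at 3 h against 1 h was -1.32 ± 0.25 (limma adjusted p = 0.00222). The call at 2 h was lost without shoot 2 h replicate 2 (limma adjusted p = 0.0763), shoot 2 h replicate 3 (limma adjusted p = 0.101) or shoot PS0 replicate 3 (limma adjusted p = 0.0684), with trimmed mean of M-values (TMM) scaling (limma adjusted p = 0.0624) and when the fit held only the 2 compared groups (limma adjusted p = 0.156). The call at 3 h was kept under every alternative run for it.

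In roots DIN10 did not pass against PS0 water at any time. Root libraries held 1022.8, 209 and 1739.2 normalized counts after 1 h, 1026.4, 699.7 and 1256.4 after 2 h, and 554.6, 654.2 and 512.9 after 3 h, against 391.7, 400.2 and 279.4 in PS0 water. Apart from replicate 2 at 1 h, each treated library lay above all 9 root water libraries. The change was 1.03 ± 0.50 at 1 h (limma adjusted p = 0.303), 1.45 ± 0.50 at 2 h (limma adjusted p = 0.153) and 0.69 ± 0.50 at 3 h (limma adjusted p = 0.474). Without replicate 2 at 1 h the change there was 1.92 and passed (limma adjusted p = 0.00369), and against the S0 and PH0 sets the change passed at 1 h, at 1.31 (limma adjusted p = 0.0406), and at 2 h, at 1.74 (limma adjusted p = 0.0110). Against those sets 20.7% of all genes tested in roots passed at 1 h and 15.3% at 2 h, where PS0 water gave 1.67% and 3.04%.

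The difference between organs was tested directly for DIN10. The root change minus the shoot change was 1.37 ± 0.59 at 1 h (limma adjusted p = 0.553), 2.38 ± 0.59 at 2 h (limma adjusted p = 0.0196) and 2.36 ± 0.59 at 3 h (limma adjusted p = 0.0163). The 3 values share the same PS0 libraries. The call at 2 h was lost when root 2 h replicate 1, root PS0 replicate 3, shoot 2 h replicate 2, shoot 2 h replicate 3 or shoot PS0 replicate 3 was left out, and the call at 3 h when shoot 3 h replicate 1 or shoot PS0 replicate 3 was left out. None of the other 4 members tested in both organs passed at any time, although GolS1 at 2 h gave -1.91 with a 95% interval of -4.18 to 0.36.

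SIP2, an alkaline alpha-galactosidase that splits raffinose, gave shoot values that differed with the water set it was compared with. Treated shoots held 29.3, 18.8 and 13.4 normalized counts after 1 h, 20.2, 94.3 and 26.3 after 2 h, and 28.2, 25.8 and 28.4 after 3 h. The water shoots held 21.2, 9.2 and 25.8 in PS0, 163.8, 104.6 and 60.1 in S0, and 344.2, 95.6 and 101.1 in PH0. The PS0 libraries lay below all S0 and PH0 libraries, and at 1 and 3 h so did the treated ones. Set against the S0 and PH0 sets averaged, PS0 gave a SIP2 difference of -2.76 ± 0.48 (limma adjusted p = 0.00102).

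Against PS0 water the SIP2 change in shoots was 0.17 ± 0.55 at 1 h (limma adjusted p = 0.985), 1.06 ± 0.55 at 2 h (limma adjusted p = 0.245) and 0.64 ± 0.55 at 3 h (limma adjusted p = 0.498). Against S0 and PH0 it was -2.59 at 1 h (limma adjusted p = 8.18e-04), -1.70 at 2 h (limma adjusted p = 0.0123) and -2.12 at 3 h (limma adjusted p = 0.00238). The SIP2 change in shoots was below 0 at each time against S0 and PH0, and above 0 against PS0, where at 1 h it also fell below 0 without shoot 1 h replicate 1 (-0.11) or shoot PS0 replicate 2 (-0.25). In roots SIP2 held 73.3, 29.9 and 284.7 normalized counts after 1 h, 51.2, 47.2 and 268.3 after 2 h, and 42.9, 39.6 and 113.1 after 3 h, against 46.6, 37.2 and 62.1 in PS0 water. Replicate 3 was the highest treated root library at each time, as it was for GolS1, and the rest of the treated values overlapped the water values. The SIP2 change in roots was 0.84 ± 0.69 at 1 h (limma adjusted p = 0.577), 0.85 ± 0.69 at 2 h (limma adjusted p = 0.602) and 0.28 ± 0.69 at 3 h (limma adjusted p = 0.866).

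**Figure D2:**
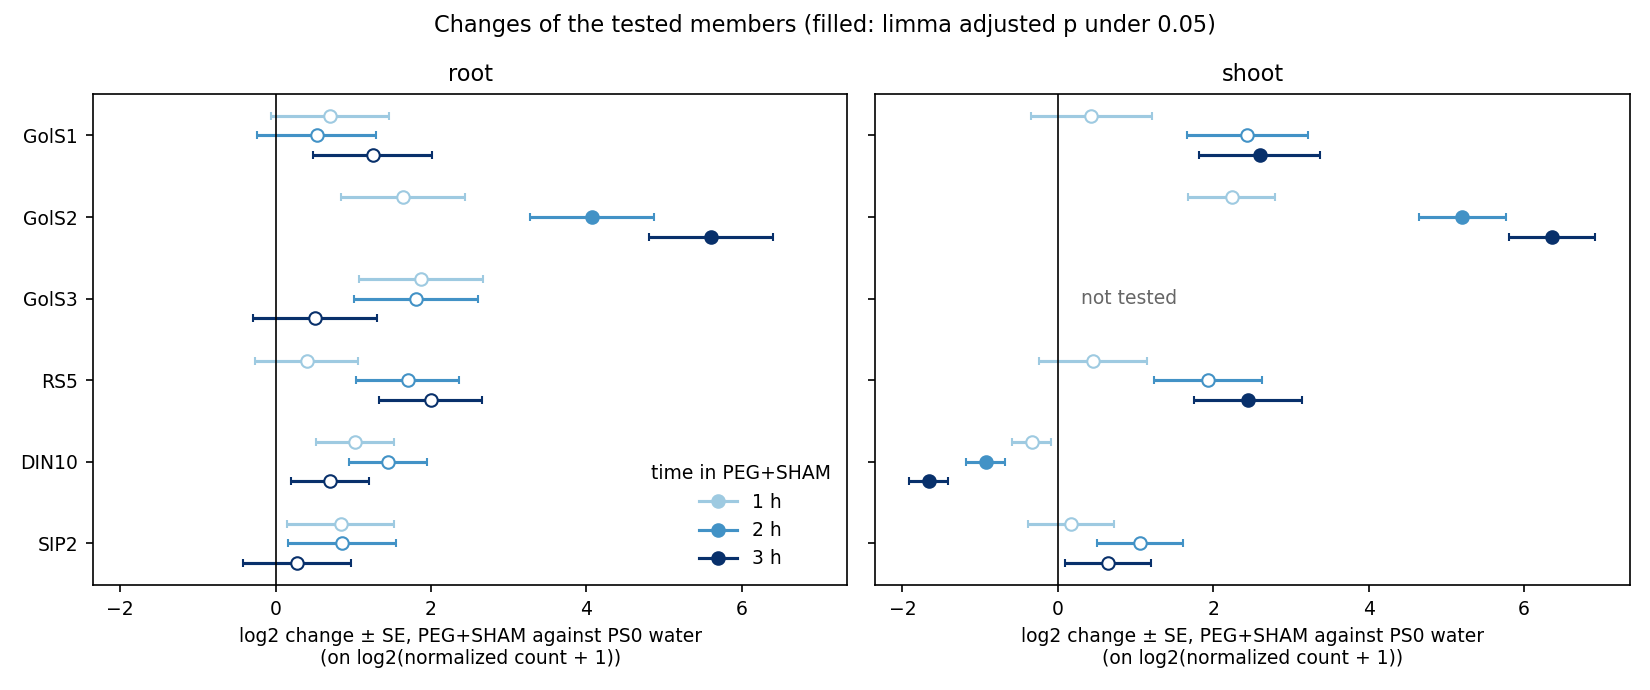
Log2 change ± SE of the tested genes after 1, 2 and 3 h of PEG with SHAM against PS0 water, in roots (left) and shoots (right), with filled points where the limma adjusted p was under 0.05. GolS2 is filled at 2 and 3 h in both organs, and in shoots GolS1 and RS5 are filled at 3 h and DIN10, below 0, at 2 and 3 h.

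Counted over the set, 6 of the 7 measured genes passed the filter on low values in roots and 5 in shoots, the filter being 5 normalized counts in at least 3 libraries of the organ. In roots limma called 0 of 6 at 1 h, where 1 of 6 had an unadjusted p under 0.05 and edgeR and DESeq2 called 0, against 1.67% of all genes tested. It called 1 of 6, GolS2, as higher at 2 h, against 1.78% of all genes called higher, and again 1 of 6 at 3 h, against 3.49%. In shoots limma called 0 of 5 at 1 h, where 1 of 5 had an unadjusted p under 0.05 and edgeR and DESeq2 called 0, against 0.870% of all genes. At 2 h it called 1 of 5 as higher, against 4.36% of all genes, and 1 of 5 as lower, against 5.06%. At 3 h it called 3 of 5 as higher, against 6.66%, and 1 of 5 as lower, against 7.37%. GolS2 in both organs and GolS1 in shoots passed the filter only with their treated libraries, so these counts support nothing beyond the values given above. Of the 3 members called higher in shoots at 3 h, RS5 passed the filter on its water libraries alone.

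The times share the PS0 libraries, so the counts at 1, 2 and 3 h are not independent. Between treated times at 3 h against 1 h, 1 of 6 members was called higher in roots, beside 1.00% of all genes, and in shoots 1 of 5 was called higher, beside 2.98%, and 1 of 5 lower, beside 3.26%. The member called higher was GolS2 in both organs, which passed the filter only with its treated libraries. Those counts of higher members support nothing beyond the GolS2 values given above. In the test of the root change minus the shoot change, limma called 0 of 5 members at 1 h, beside 0.348% of all genes in either direction and 1 of 5 at an unadjusted p under 0.05. DIN10 was the 1 of 5 called at 2 h, beside 1.51% of all genes called in that direction, and at 3 h, beside 2.19%.

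The water sets themselves differed. In shoots PS0 was set against the mean of S0 and PH0, and limma called 1 of 5 members, SIP2, as lower, beside 6.66% of all genes. In roots it called 0 of 6, with 0 of 6 at an unadjusted p under 0.05, beside 3.94% of all genes in either direction. For DIN10 the shoot PH0 libraries held 1798.5, 1804.2 and 1764.3 normalized counts and lay above all PS0 libraries, and the S0 libraries, at 1202.4, 1030.8 and 942.4, overlapped PS0. The DIN10 change in shoots at 3 h was -1.66 against PS0 and -2.09 against S0 and PH0 (limma adjusted p = 4.53e-07). For GolS2 the change at 3 h was 5.61 in roots and 6.36 in shoots against PS0, and 6.06 in roots and 6.96 in shoots against S0 and PH0. The water groups held few GolS2 reads, 4 over the PS0 libraries of each organ, so the size of the change rests on the pseudocount. With a pseudocount of 5 in place of 1 the change at 3 h against PS0 was 3.98 in roots (limma adjusted p = 3.57e-05) and 4.73 in shoots (limma adjusted p = 8.71e-10).

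**Figure D3:**
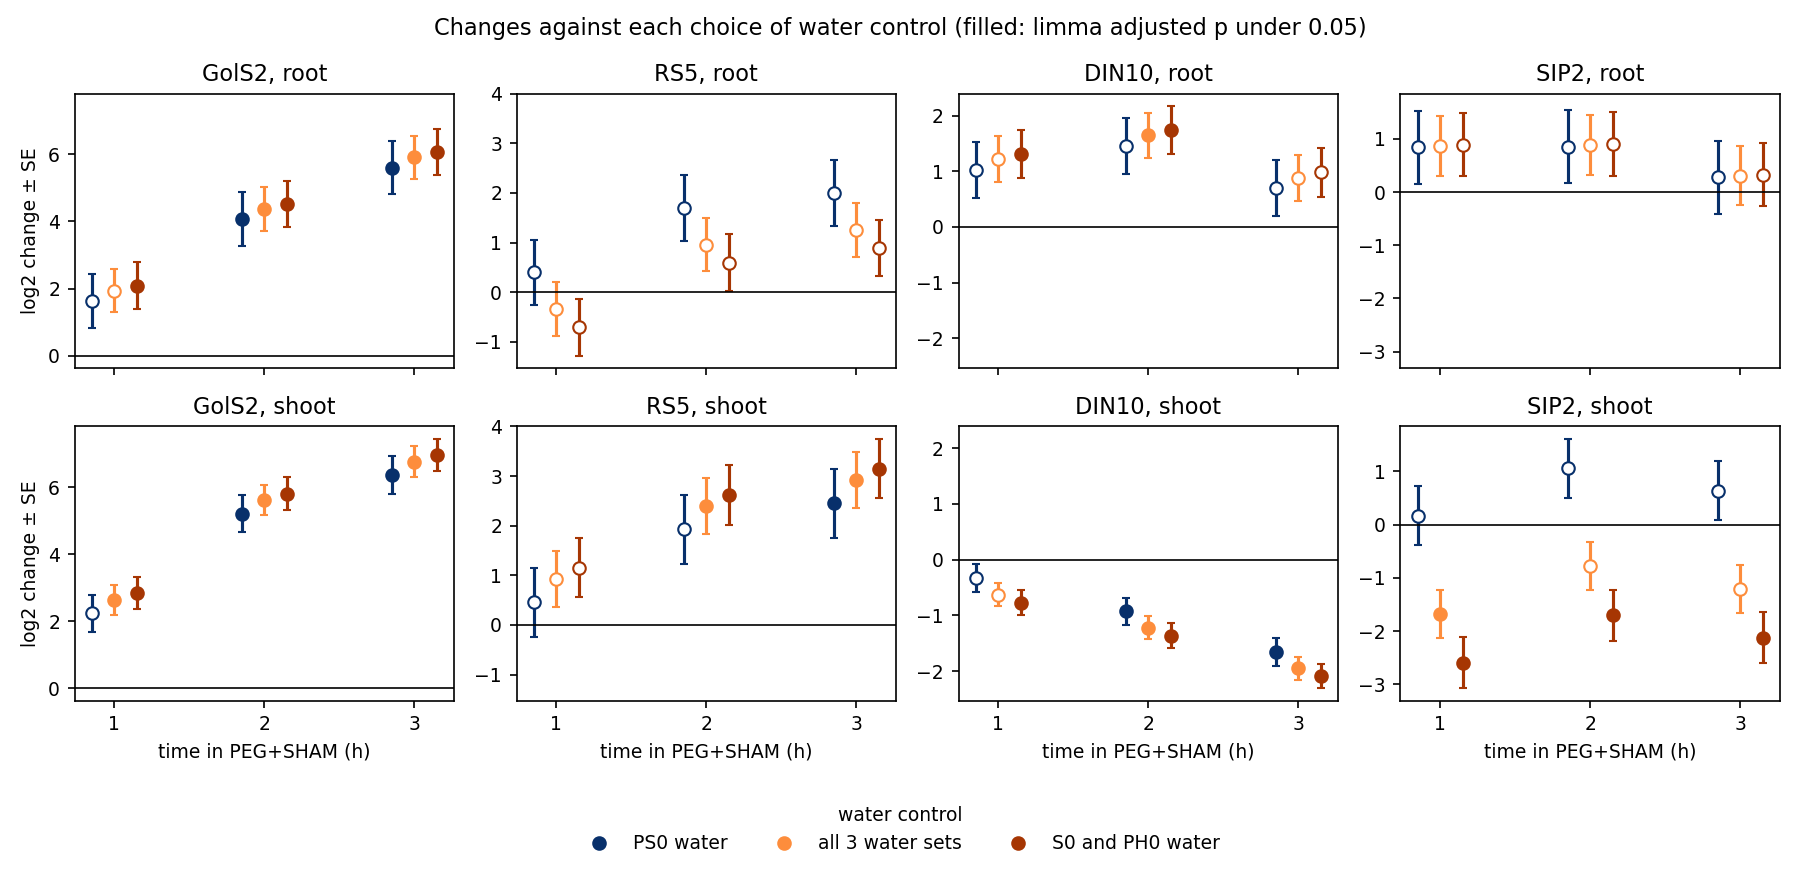
Log2 change ± SE of GolS2, RS5, DIN10 and SIP2 in roots (top) and shoots (bottom) after 1, 2 and 3 h of PEG with SHAM, against PS0 water, all 3 water sets, or the S0 and PH0 sets, with filled points where the limma adjusted p was under 0.05. GolS2 lies above 0 and DIN10 in shoots below 0 under all 3 choices, whereas SIP2 in shoots is above 0 against PS0 water and below 0 against the other choices.

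Without treatment, 4 of the 6 members tested were called between the organs, 3 higher and 1 lower in roots. Of all genes tested, 46.6% were called higher and 22.8% lower, so calls were as common over all genes. Over the 9 water libraries of each organ, the normalized count of RS5 was 32.4 ± 15.5 in the roots, against 6.3 ± 3.77 in the shoots (SD over 9 libraries of each organ), with no overlap. DIN10 showed the opposite order, with 315.7 ± 70.5 in roots and 1313 ± 448 in shoots, again with no overlap. On the log2 scale the root minus shoot difference was 2.33 ± 0.40 for RS5 (limma adjusted p = 6.73e-06), -2.00 ± 0.24 for DIN10 (limma adjusted p = 9.84e-09) and 1.302 ± 0.448 for GolS1 (limma adjusted p = 0.0110), beside a median of 0.58 over all genes tested. GolS3 was also called higher in roots, at 1.70 ± 0.41 (limma adjusted p = 5.56e-04), but it passed the filter only through its root libraries. The difference was 0.43 ± 0.40 for GolS2 (limma adjusted p = 0.345) and -0.46 ± 0.38 for SIP2 (limma adjusted p = 0.281).

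The surrounding pathway was followed in 41 further genes of myo-inositol, UDP-galactose, galactinol, raffinose and sucrose metabolism, including inositol oxidation and acid alpha-galactosidases. Of these, 27 were analysed, 20 were tested in roots and 15 in shoots. The other 6 galactinol synthase genes, GolS5 to GolS10, were not analysed here. Limma called 0 of 20 in roots and 0 of 15 in shoots at 1 h, against 1.67% and 0.870% of all genes in either direction. At that time 1 of 20 and 2 of 15 had an unadjusted p under 0.05, and edgeR and DESeq2 called 0 in each. With shares this low, a count of 0 says little about these genes. In roots it called 1 of 20 at 2 h, against 3.04% of all genes in either direction, and 1 of 20 at 3 h, against 6.56%. In shoots it called 1 of 15 at 2 h, against 9.42% of all genes, and 4 of 15 at 3 h, 3 higher and 1 lower, against 14.0%. The median log2 change of the tested genes at 3 h was 0.26 in roots and 0.31 in shoots, beside -0.16 and -0.08 over all genes. At 3 h in shoots 9 of 15 were called against S0 and PH0 water, beside 29.0% of all genes, and 6 of 15 by edgeR on the recovered reads, beside 17.5%.

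SPS2F (AT5G11110), a sucrose phosphate synthase that makes the precursor of the sucrose to which raffinose synthase adds galactose, was the 1 gene of these lists called in roots against PS0 water. Root values were 13.2, 12.4 and 9.3 normalized counts in PS0 water, 12.8, 21.3 and 27.9 after 1 h, 33.5, 41.4 and 63.3 after 2 h, and 115.2, 83.6 and 79.6 after 3 h. The groups at 2 and 3 h lay above the earlier ones without overlap. SPS2F rose by 1.86 ± 0.35 at 2 h (limma adjusted p = 0.00503) and by 2.89 ± 0.35 at 3 h (limma adjusted p = 4.22e-05) in roots, and by 3.30 ± 0.72 in shoots at 3 h (limma adjusted p = 0.00352). Shoots at 3 h averaged 49.1 ± 1.35 normalized counts, against 7 ± 6.2 in PS0 water shoots (SD, n = 3 each). Without shoot PS0 replicate 1, which held 0, the shoot change was 2.13 (limma adjusted p = 0.0118), and without shoot PS0 replicate 3 it was 3.97 (limma adjusted p = 0.00113). The PH0 water roots held 30, 30.4 and 27.9 normalized counts, above PS0 water, and against S0 and PH0 the root change was 1.03 at 2 h (limma adjusted p = 0.0287) and 2.05 at 3 h (limma adjusted p = 9.15e-05). The root call at 2 h was lost when the fit held only the 2 compared groups (limma adjusted p = 0.0647).

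MIPS1 (AT4G39800) and MIPS2 (AT2G22240) encode myo-inositol phosphate synthases, which start the synthesis of the inositol that galactinol synthase uses, and both rose in shoots. MIPS1 in shoots held 38.8, 84.2 and 37.5 normalized counts in PS0 water, 52.4, 73.2 and 70.6 after 1 h, 90.5, 121.2 and 109.6 after 2 h, and 199, 135.7 and 160.4 after 3 h. Its change was 1.08 ± 0.29 at 2 h (limma adjusted p = 0.0207), a call lost in 4 of 6 fits that each left out a library, and 1.69 ± 0.29 at 3 h (limma adjusted p = 3.68e-04), a call kept in all 6. Against S0 and PH0 water the MIPS1 change was 0.62 at 2 h (limma adjusted p = 0.0700) and 1.23 at 3 h (limma adjusted p = 8.70e-04). The call at 2 h was also lost when the fit held only the 2 compared groups (limma adjusted p = 0.119). MIPS2 averaged 44.1 ± 12 in treated shoots at 3 h and 10.8 ± 6.66 in PS0 water shoots (SD, n = 3 each), a change of 2.14 ± 0.49 (limma adjusted p = 0.00551), and of 1.501 without shoot PS0 replicate 2 (limma adjusted p = 0.0371). In roots MIPS1 held 196.4, 212.7 and 230.1 at 3 h against 244.9, 171.7 and 186.3 in PS0 water, and the groups overlapped. The root change of MIPS1 minus its shoot change at 3 h was -1.60 ± 0.36 (limma adjusted p = 0.00654), which passed in all 12 fits that each left out a library.

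MIOX2 (AT2G19800), a myo-inositol oxygenase that takes inositol into oxidation, fell in shoots at 3 h. The treated shoots held 0, 0 and 2.2 normalized counts, against 17.6, 12.2 and 3.4 in PS0 water shoots, and the change was -2.80 ± 0.83 (limma adjusted p = 0.0300). The 2 groups did not overlap, but the call was lost in 4 of 6 fits that each left out a library, with a pseudocount of 5 (limma adjusted p = 0.0716) and by edgeR (adjusted p = 0.0684). Without shoot PS0 replicate 3 the change was -3.41 (limma adjusted p = 0.0127). The other water shoots held 193.2, 118.2 and 31.5 in S0 and 22.2, 8.9 and 19.5 in PH0, so the S0 libraries lay above both other sets.

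**Figure D4:**
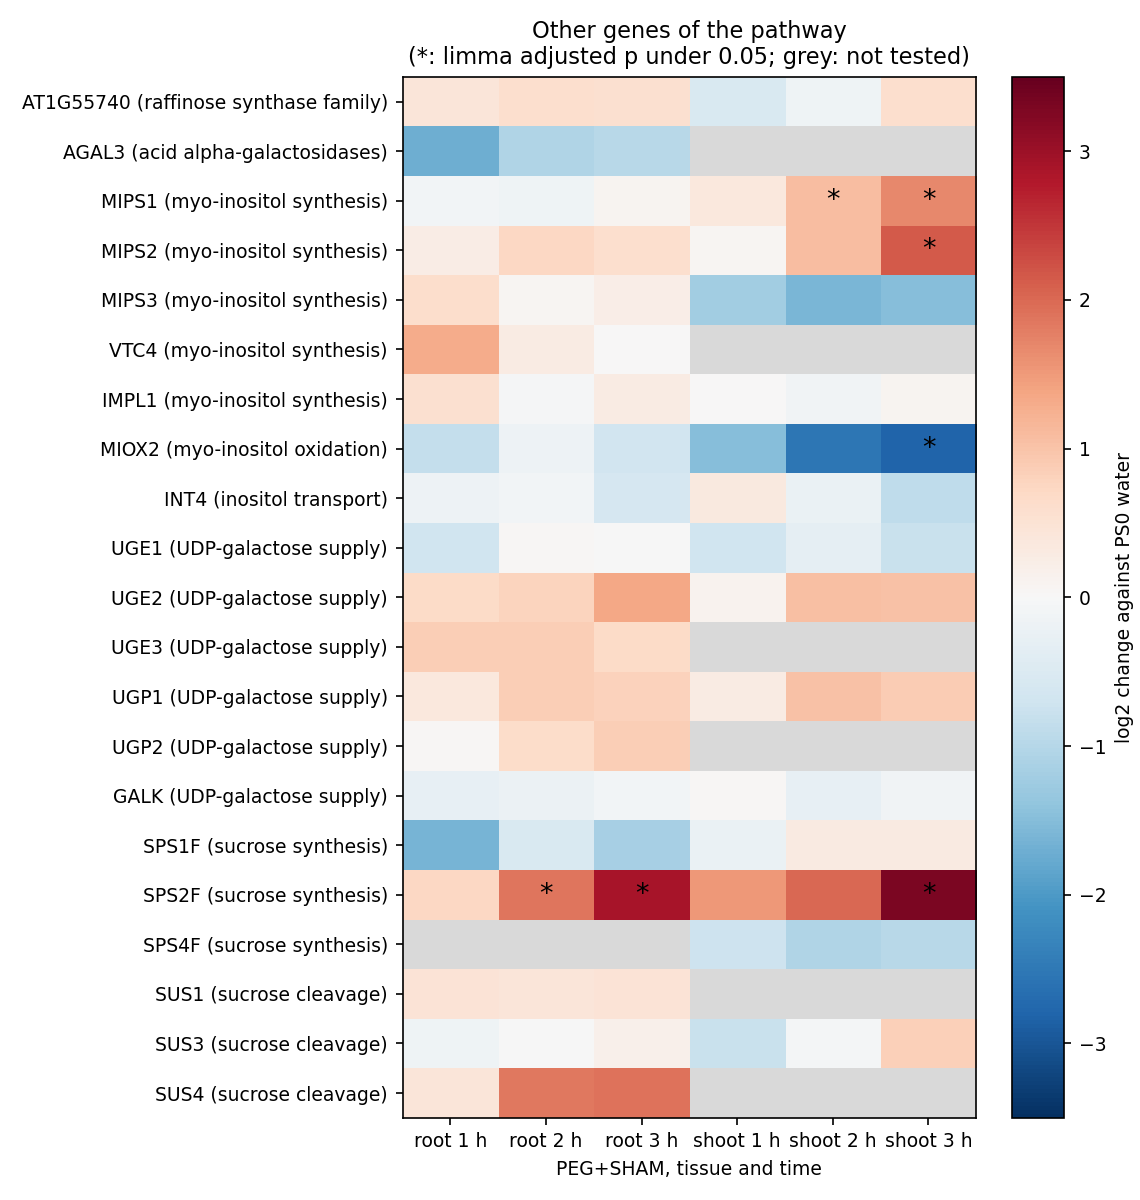
Log2 change against PS0 water of the 21 further genes of the pathway tested in at least 1 organ, by organ and time, with an asterisk where the limma adjusted p was under 0.05 and grey where a gene was not tested. SPS2F carries an asterisk in both organs, and MIPS1, MIPS2 and MIOX2 carry theirs in shoots.

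Genes whose pattern over the 12 group means was most like each member were found by Pearson correlation, with each organ centred on its own mean, among 7364 genes. The 12 means share libraries and controls with the member they are compared with, so r is a description. For GolS2 the closest were AT3G48510 (r = 0.993), MAPKKK18 (r = 0.989), a kinase gene known from abscisic acid responses, and AT3G54130 (r = 0.988). MAPKKK18 averaged 421.4 ± 16.3 normalized counts in treated roots at 3 h and 4.43 ± 1.59 in PS0 water roots, and 482.5 ± 101.7 in treated shoots and 1.23 ± 1.64 in PS0 water shoots (SD, n = 3 each). For RS5 the closest was HB-7 (r = 0.967), a homeobox gene known from water deficit, which averaged 764.6 ± 167.1 in treated shoots at 3 h and 38.3 ± 11.9 in PS0 water shoots. In treated roots HB-7 averaged 36.2 ± 17.4 at 1 h and 277.2 ± 120.7 at 3 h. Its water roots averaged 36.4 ± 13.7 in PS0, 60.4 ± 5.63 in S0 and 86.8 ± 15.4 in PH0 (SD, n = 3 each). AT3G01820 (r = 0.966) and CSLA02 (r = 0.961) followed.

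For DIN10 the closest were PIN4 (r = 0.939), an auxin efflux carrier gene, AT5G14120 (r = 0.935) and ERD5 (r = 0.922), a proline dehydrogenase gene. For GolS1 they were AT3G49800 (r = 0.961), WOX13 (r = 0.956) and AT5G56140 (r = 0.953), and for SIP2 they were CRSH (r = 0.942), ACR9 (r = 0.927) and AT5G66240 (r = 0.9). Over these named genes r ranged from 0.988 to 0.993 for GolS2 and from 0.9 to 0.967 for the others.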

How the data were processed

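Per the labels, MARS-seq libraries were made from roots and shoots of water-treated and PEG with SHAM-treated seedlings. Per the submitters' processing notes, bcl2fastq, cutadapt, STAR 2.4.2a, HTSeq and DESeq2 were used. The genome build, annotation, use of molecular identifiers, strand setting and treatment of reads shared by paralogs were not given in the sources used here. The deposited signal values are gene counts divided by a size factor per library and rounded to 0.1. At least 99.96% of values in each library were whole multiples of 1 read within the rounding of 0.05, which gave back whole reads.

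Values were tested on log2(value + 1) with limma 3.58.1 (trend, Benjamini-Hochberg, threshold 0.05) in R 4.3.3. Genes needed a value of 5 in 3 libraries of the organ. All 18 libraries of an organ entered 1 fit, and all 36 the comparisons between organs, for which genes passed in either organ (water) or in both (difference in response). Recovered reads were tested with edgeR 4.0.16 and DESeq2 1.42.0 as alternatives. Other alternatives were a pseudocount of 5, no filter, TMM scaling, other water sets, the compared groups alone, a replicate block and leaving out each library. Scripts were tested on simulated data.

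Genes most like a member carry RefSeq symbols, and RefSeq matched 16183 of 16283 loci. Members and further pathway genes carry the names of the lists that chose them. AT1G55740, named SIP1 in part of the literature, is given by its locus. The text names all members, further pathway genes called against PS0 water at any time, and the 3 genes most like each member tested in both organs. The members, lists and tests were chosen with earlier results of these data known.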

Additional observations from a re-analysis of the deposited data

Results flagged for a closer look

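DIN10 was flagged because its change in roots and its change in shoots differed by a test of the difference itself. The root change minus the shoot change was 2.38 ± 0.59 on the log2 scale at 2 h (limma adjusted p = 0.0196) and 2.36 ± 0.59 at 3 h (limma adjusted p = 0.0163). Both calls were lost when shoot PS0 replicate 3 was left out, and in other fits given above. That library held 1686.1 normalized counts, against 892.1 and 698.1 in the other PS0 shoot libraries. At 3 h DIN10 averaged 573.9 ± 72.6 normalized counts in treated roots and 357.1 ± 67.4 in PS0 water roots, and 324.2 ± 57.6 in treated shoots and 1092 ± 523 in PS0 water shoots (SD, n = 3 each). MIPS1 was flagged in the same way at 3 h, where its root change minus its shoot change was -1.60 ± 0.36 (limma adjusted p = 0.00654).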

How the results depend on the processing

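Over 33 member changes, 437 of 493 recomputed values kept their direction and their side of the threshold, 22 newly passed it, 16 no longer did and 18 changed sign. Of the 14 counts of called members, 173 of 206 recomputed values were equal to the main count or within 1.5 times of it. For a main count of 0 or 1 only an equal count could qualify. Against S0 and PH0 water the count was 2 in roots at 1 h, 2 in roots at 2 h, 3 in shoots at 1 h and 5 in shoots at 2 h, and against all 3 sets it was 2 in roots at 2 h, 2 in shoots at 1 h and 4 in shoots at 2 h. The share of all genes called in either direction moved too, and against S0 and PH0 it was 20.7% in roots at 1 h, 15.3% in roots at 2 h, 19.2% in shoots at 1 h and 27.3% in shoots at 2 h, where PS0 water gave 1.67%, 3.04%, 0.870% and 9.42%. In roots at 2 h the share was 11.5% against all 3 sets and 0.728% with the compared groups alone. Because the share moved with the setting, the member counts in this paragraph describe the settings and are not results about the members. With the compared groups alone the count of called members was 0 in roots at 2 h, 2 in roots at 3 h and 1 in shoots at 2 h. With edgeR and with DESeq2 it was 2 in roots at 3 h. In shoots at 2 h it was 4 with a pseudocount of 5 and 1 with TMM. Leaving out 1 library gave 0 to 1 in roots at 1 h, 1 to 1 at 2 h and 1 to 1 at 3 h, and 0 to 0 in shoots at 1 h, 1 to 2 at 2 h and 2 to 4 at 3 h. It gave 0 to 2 in roots and 2 to 2 in shoots for 3 h against 1 h, 0 to 0 in roots and 1 to 2 in shoots for PS0 against the other water sets, 4 to 4 between organs in water, and 0 to 1 for the root minus shoot change at 1, 2 and 3 h.

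Of the 18 changes that turned sign, 0 had been called before and 4, all SIP2 in shoots, passed on the other side, and the cause was not tested. In roots RS5 at 1 h was -0.34 against all 3 water sets and -0.70 against S0 and PH0. Leaving out 1 root library moved RS5 at 1 h over -0.43 to 1.49 (lowest without 1 h replicate 3), SIP2 over -0.020 to 1.58 at 1 h (lowest without 1 h replicate 3) and -0.20 to 0.54 at 3 h (without 3 h replicate 3), GolS1 at 2 h over -0.35 to 1.06 (below 0 without 2 h replicate 3 or PS0 replicate 2) and GolS3 at 3 h over -0.33 to 1.18 (without PS0 replicate 3). In shoots at 1 h DIN10 moved over -0.61 to 0.027 (above 0 without PS0 replicate 3) and SIP2 over -0.25 to 0.45 (below 0 without 1 h replicate 1 or PS0 replicate 2), and GolS1 was -0.34 with edgeR. SIP2 in shoots was -1.67 at 1 h, -0.78 at 2 h and -1.20 at 3 h against all 3 sets, and -2.59, -1.70 and -2.12 at those times against S0 and PH0.

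TMM moved the median change of all genes by -0.18 to 0.21 over the 14 comparisons. The share of called genes that were higher was 69.6% with TMM and 58.7% without it in roots at 2 h, 65.8% and 53.2% in roots at 3 h, 93.5% and 78.9% in roots for 3 h against 1 h, 46.9% and 35.9% for PS0 against the other water sets in roots, and 73.1% and 57.4% at 2 h and 67.8% and 57.1% at 3 h for the root minus shoot change. That share was lower with TMM in shoots at 2 h (42.9% and 46.3%) and in shoots for 3 h against 1 h (41.9% and 47.8%). It was also lower between organs in water (62.0% and 67.2%) and for the root minus shoot change at 1 h (54.5% and 62.5%). In the comparisons not listed it was higher with TMM, including shoots at 1 h (84.5% and 74.7%). The replicate block left the count at 4 in shoots at 3 h and changed 0 of the counts and 0 member calls. Same-numbered libraries of different groups within roots deviated together with a mean r of 0.04, over pairs from -0.47 to 0.51. Of these pairs, 15 of 45 lay over 0.1, and in shoots 7 of 45 did. The numbers were not taken to pair samples, and 6 of 18 root and 8 of 18 shoot libraries correlated best with their own number. Whether root and shoot libraries of the same number deviated together was not tested. Depth limits the low genes, GolS1, GolS3 and GolS4, most.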
